A study of Rattus norvegicus with 9 samples.

Results

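Nucleolar ribosome biogenesis genes and Myc were followed in S31 cells, primary smooth muscle cells grown from the small heart vessels of male Wistar Kyoto rats. They are 39 genes chosen by symbol: Myc, RNA polymerase I and its initiation factors, nucleolar chaperones, snoRNP proteins, and assembly factors of the small and large ribosomal subunits. Of the 39 genes, 37 had a mean of at least 1 FPKM (the authors' unit, in which fragments are scaled to transcript length and library size) over the 9 libraries and were tested among 11376 genes. Nhp2, a box H/ACA protein, and Utp14a, a small subunit factor, were listed at 0 except for 1.26 FPKM of Nhp2 in IGF-NS library 2, and were not tested. Gar1, Rrp9 and Heatr1 were the lowest genes that passed, at means of 1.99, 2.34 and 2.45 FPKM. Another row carrying the Heatr1 symbol averaged 0.967 FPKM, just under the threshold, and another Npm1 row was at 0 in every library.

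Ribosomes are built in the nucleolus. RNA polymerase I transcribes ribosomal DNA into a long precursor, box C/D and box H/ACA snoRNPs modify that precursor, and large assemblies cut and fold it into the small and large subunits. Myc is a transcription factor that binds E-box sequences with its partner Max and is known to activate genes at each of these steps, and growth factors commonly raise it soon after serum-starved cells are stimulated.

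The 3 groups had 3 libraries each and are called here by their columns: PDGF-NS, IGF-NS and control (LH-NS). All cells were wild type and had been held for 48 h without serum. Treated cells then received 25 ng/ml of recombinant rat PDGF-BB or of recombinant human IGF-1 in serum-free medium, and control cells received that medium without growth factor. Labels and columns do not match for the treated sets: the records titled IGF-1, harvested at 24 h, name the PDGF-NS columns, and the records titled PDGF-BB, harvested at 48 h, name the IGF-NS columns. The control was harvested at 24 h. By record, time and factor therefore cannot be told apart in IGF-NS against control or in PDGF-NS against IGF-NS. If the column names hold instead, the same applies to PDGF-NS against control and to PDGF-NS against IGF-NS. No expression value was used to settle whether records or column names hold.

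Whether the 3 libraries of a group are separate cultures is not stated in the labels, so the p-values cover spread that may be technical. FPKM summed to between 616765 and 748000 per library, and the read depth behind the values is unknown. Of 10 smooth muscle markers 9 had a mean of at least 1 FPKM, and Myh11 averaged 0.94 FPKM. The 10 summed to 421 to 458 FPKM in PDGF-NS, 647 to 688 FPKM in IGF-NS and 2610 to 3740 FPKM in control libraries. Tagln was the largest part, at 1740 to 2698 FPKM in control libraries. Des went the other way in PDGF-NS, at 4.85 to 5.52 FPKM against 1.22 to 1.71 FPKM in control libraries. Synpo2 did so in IGF-NS, at 4.21 to 7.63 FPKM against 3.54 to 3.91 FPKM in control libraries. The defining endothelial markers Cdh5, Emcn, Cldn5 and Kdr, the cardiomyocyte markers Myl2 and Myh6, the leukocyte markers Ptprc and Aif1 and the fibroblast marker Tcf21 were listed at 0. Summed over 8 genes each, macrophage markers reached 43.9 to 89.5, 23.0 to 31.2 and 17.8 to 27.0 FPKM in PDGF-NS, IGF-NS and control libraries, and fibroblast markers 3320 to 4290, 6420 to 7670 and 3390 to 4800 FPKM. The fibroblast genes did not move together. Lum, Pdgfra, Dcn and Pi16 were higher in every PDGF-NS than in every control library, and Col3a1 overlapped. Lum measured 773 to 1261 FPKM in PDGF-NS and 276 to 395 FPKM in control libraries. Col1a1, the largest part of the sum, measured 1444 to 2548 FPKM in PDGF-NS and 2371 to 3686 FPKM in control libraries. The 8 cardiomyocyte markers summed to 50 to 97.7 FPKM in PDGF-NS, 53.7 to 112 FPKM in IGF-NS and 515 to 865 FPKM in control libraries. Of these, the 2 with a mean of at least 1 FPKM were Pln, the calcium pump inhibitor phospholamban, which smooth muscle also makes, at a mean of 270.0 FPKM, and Tnnt2, a troponin, at 9.90 FPKM. The part of these differences in the results was not tested. In bulk RNA, fewer cells of a type and less RNA per cell cannot be told apart. Across genes, the deviation of control library 1 from its group mean ran with that of IGF-NS library 3 (r = 0.34) and against that of IGF-NS library 2 (r = -0.51), and control library 3 ran with IGF-NS library 2 (r = 0.41). The counts below are therefore also given without each of the pairs that ran together.

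Myc (ENSRNOG00000004500) was the gene of the 37 with the largest change. It measured 18.8, 19.6 and 18.0 FPKM in PDGF-NS libraries 1 to 3, 58.6, 57.8 and 67.1 FPKM in IGF-NS libraries, and 104, 82.2 and 66.7 FPKM in control libraries. The PDGF-NS libraries lay close together and below every other library, while IGF-NS library 3 overlapped the lowest control library. Mean Myc was 4.48-fold lower in PDGF-NS than in control cells, a log2 change of -2.08 ± 0.16 (SE, n = 3 each; limma with Benjamini-Hochberg adjustment over all tested genes, adjusted p = 1.5e-05). Against IGF-NS it was 3.25-fold lower (log2 change -1.65 ± 0.16, limma adjusted p = 0.00011). The IGF-NS change against control was -0.44 ± 0.16, with a 95% interval of -0.79 to -0.08, and missed the threshold of 0.05 (limma adjusted p = 0.069). It passed when libraries were scaled by median ratios or by quantiles, and also without control library 3.

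In PDGF-NS against control, 8 of the 37 genes fell (21.6%) and 2 rose (5.41%), where over all tested genes 10.2% fell and 20.7% rose. The genes that fell were Myc, Polr1a, Nolc1, Ddx21, Heatr1, Rrp12, Nop2 and Bop1, and those that rose were Ncl and Rrn3. The median log2 change of the 37 was -0.20, against 0.13 for all tested genes. The libraries of the groups did not overlap for 12 genes lower and 4 higher in PDGF-NS, 32.4% and 10.8% of the 37, beside 17.3% and 31.3% of all tested genes. Without PDGF-NS library 1, or without PDGF-NS library 3, only Myc, Nop2 and Rrp12 of these 37 genes still passed as lower, and without control library 1, or without any 1 PDGF-NS library, 1 gene still passed as higher. With each library brought to a common sum 13 genes passed as lower and 1 as higher.

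In IGF-NS against control, Ncl and Ubtf rose (5.41% of the 37, where 17.4% of all tested genes rose). With limma none of the 37 fell at the adjusted threshold, where 7.48% of all tested genes fell. At an unadjusted p under 0.05, 2 of the 37 (Myc and Rrp12) were lower, beside 10.8% of all tested genes. The median log2 change was 0.08, against 0.15 for all tested genes, and turned to -0.07 with median-ratio and -0.06 with quantile scaling. Under each of those scalings Myc and Rrp12 passed as lower and Ncl was the 1 gene that passed as higher. The libraries did not overlap for 8 genes higher and 1 lower in IGF-NS, 21.6% and 2.70% of the 37, beside 27.5% and 11.6% of all tested genes. Without IGF-NS library 3, 5 genes passed as higher, and 1 did so without IGF-NS library 1, IGF-NS library 2 or control library 3.

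Between the treated sets, 10 of the 37 genes fell in PDGF-NS against IGF-NS (27.0%), where 7.55% of all tested genes fell: Myc, Polr1b, Polr1e, Ddx21, Nop56, Wdr75, Utp20, Heatr1, Nop2 and Bop1. None rose by limma at the adjusted threshold, where 8.33% of all tested genes rose, and none was higher at an unadjusted p under 0.05, beside 14.5% of all tested genes. The median log2 change was -0.28, against -0.02 for all tested genes, and in 17 genes every PDGF-NS library lay below every IGF-NS library (45.9% of the 37, beside 19.4% of all tested genes). The count of genes that fell was 15 with a common sum. With 1 library left out it ranged from 2, without IGF-NS library 1 or without PDGF-NS library 3, to 12 without control library 1. It was 3 without PDGF-NS library 1, 4 without PDGF-NS library 2, 5 without IGF-NS library 2 or control library 2, and 6 without IGF-NS library 3. Without both control library 1 and IGF-NS library 3, 12 genes fell in PDGF-NS against IGF-NS, 9 fell and 1 rose in PDGF-NS against control, and 5 rose in IGF-NS against control. Without both control library 3 and IGF-NS library 2, these counts were 4 that fell in PDGF-NS against IGF-NS, 6 that fell and 1 that rose in PDGF-NS against control, and 1 that rose in IGF-NS against control.

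**Figure D1:**
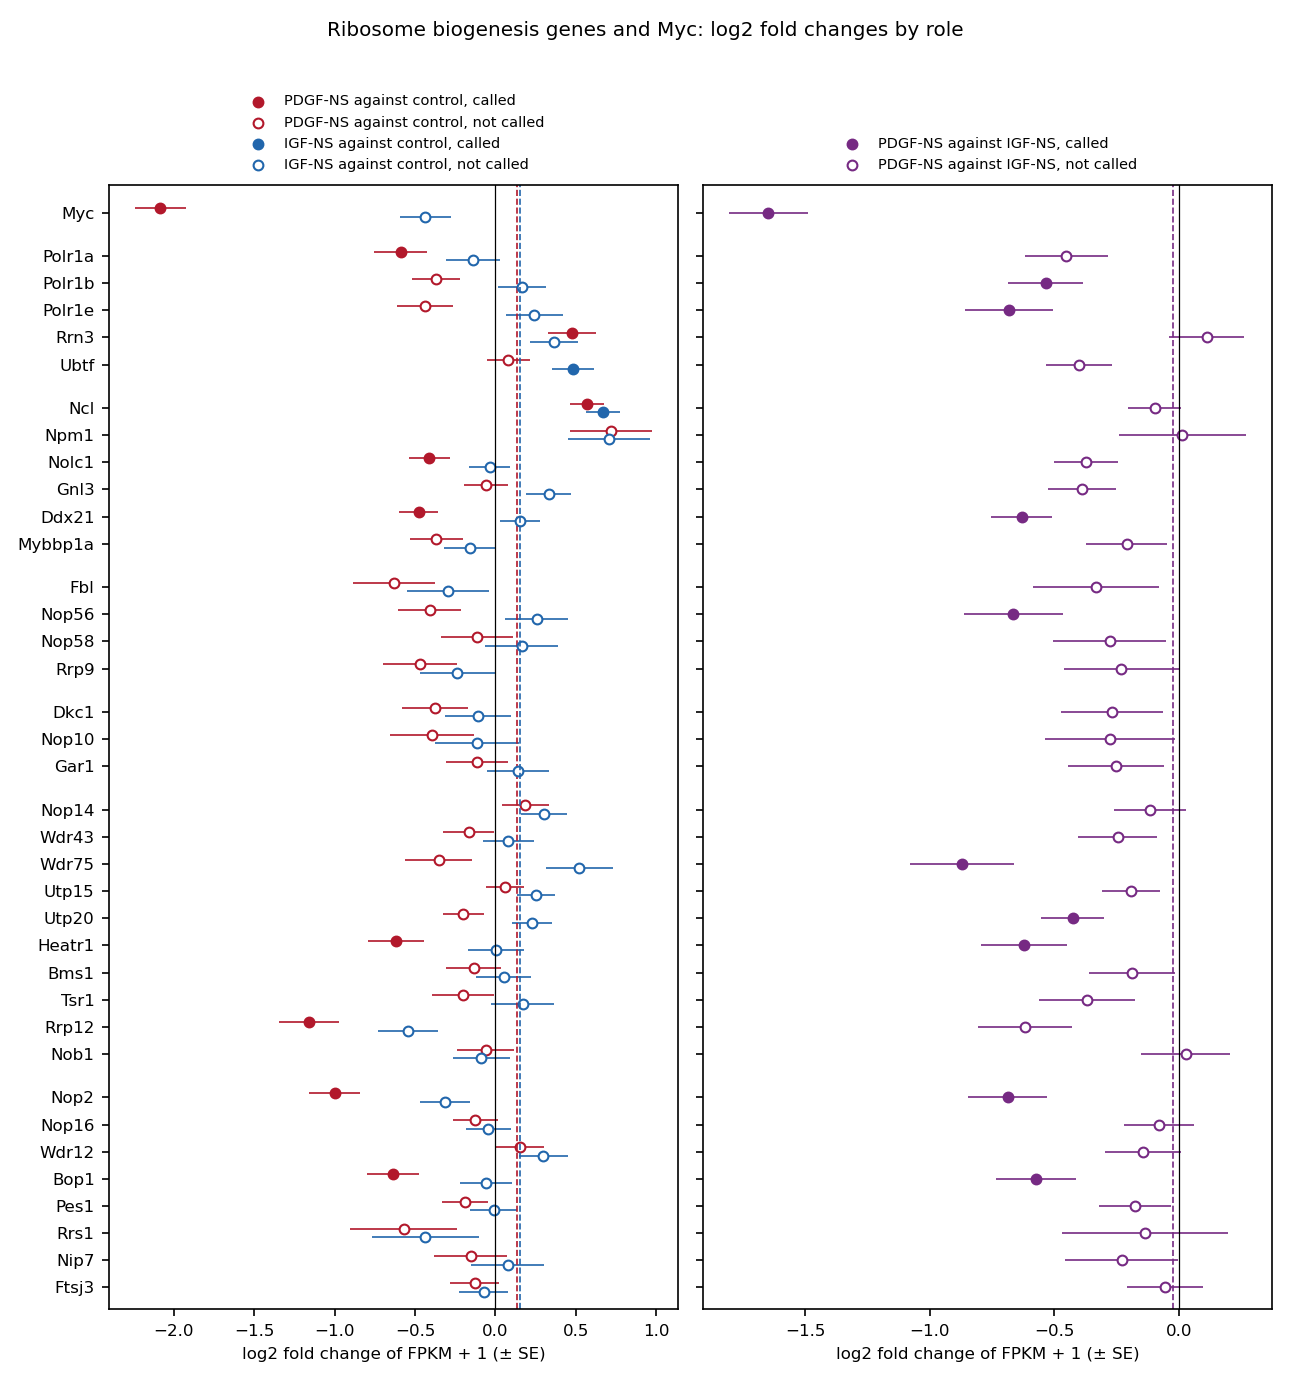
Log2 fold change (horizontal axis, log2(FPKM + 1) scale, bars are ± SE) of each of the 37 genes, grouped by role, with PDGF-NS and IGF-NS each against control on the left and PDGF-NS against IGF-NS on the right. Dashed lines are the medians of all tested genes and filled points passed the test, and Myc stands farthest left in PDGF-NS against control at -2.08, followed by Rrp12 at -1.16 and Nop2 at -1.0.

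Of the 5 RNA polymerase I genes, 1 fell and 1 rose in PDGF-NS against control, 1 rose in IGF-NS against control, and 2 fell in PDGF-NS against IGF-NS. In the same order, the shares of all tested genes were 10.2% and 20.7%, 17.4%, and 7.55%. Polr1a (ENSRNOG00000009545), the catalytic subunit, measured 6.12, 7.13 and 5.65 FPKM in PDGF-NS, 10.6, 7.27 and 9.31 FPKM in IGF-NS and 11.7, 9.18 and 9.17 FPKM in control libraries. All PDGF-NS values were below all others, and the IGF-NS and control values overlapped. Polr1a fell in PDGF-NS against control (-0.59 ± 0.17, limma adjusted p = 0.022, with 0.0075 to 0.088 over the alternatives, lost without control library 1 or PDGF-NS library 1 or 3), and was -0.45 ± 0.17 against IGF-NS (adjusted p = 0.097). Polr1b, which pairs with Polr1a in the polymerase core, measured 3.24, 3.05 and 2.81 FPKM in PDGF-NS, 5.82, 4.22 and 4.57 FPKM in IGF-NS and 4.24, 4.47 and 3.91 FPKM in control libraries. Polr1e, a subunit that helps the polymerase engage its initiation factors, measured 4.59, 6.09 and 5.85 FPKM in PDGF-NS, 12.0, 8.88 and 7.76 FPKM in IGF-NS and 8.77, 7.55 and 7.10 FPKM in control libraries. For both subunits the PDGF-NS libraries were the 3 lowest of the 9. They fell in PDGF-NS against IGF-NS, Polr1b by 0.53 ± 0.15 and Polr1e by 0.68 ± 0.18 on the log2 scale (limma adjusted p = 0.037 and 0.026), and were -0.37 and -0.44 in PDGF-NS against control (adjusted p = 0.087 and 0.083), where both passed under median-ratio, quantile and common-sum scaling. Against IGF-NS both calls were lost without IGF-NS library 1 or any 1 PDGF-NS library, that of Polr1b also without IGF-NS library 3 or control library 2, and that of Polr1e also without IGF-NS library 2. The Polr1b call was also lost with no filter, with a replicate block and with only the 6 libraries compared. The adjusted p ranged from 0.017 to 0.14 for Polr1b and from 0.011 to 0.094 for Polr1e over the alternatives.

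Neither initiation factor fell in the fit of all 9 libraries with the values as deposited. Rrn3, which links the polymerase to the promoter-bound factors, measured 17.4, 19.4 and 20.1 FPKM in PDGF-NS, 15.3, 17.2 and 20.1 FPKM in IGF-NS and 11.1, 14.8 and 14.4 FPKM in control libraries. Every treated library lay above every control library, and the treated sets overlapped. It rose in PDGF-NS against control (0.48 ± 0.15, limma adjusted p = 0.035) and was 0.37 ± 0.15 in IGF-NS against control (adjusted p = 0.10). The PDGF-NS call was lost under median-ratio, quantile and common-sum scaling, without control library 1 and without each PDGF-NS library, with adjusted p from 0.025 to 0.12 over the alternatives. Ubtf, the HMG-box factor that holds ribosomal DNA in an open state, measured 31.9, 30.4 and 30.8 FPKM in PDGF-NS, 42.3, 41.8 and 39.9 FPKM in IGF-NS and 33.8, 30.4 and 24.4 FPKM in control libraries. The IGF-NS libraries were the 3 highest, and PDGF-NS lay inside the control range. Ubtf rose in IGF-NS against control (0.48 ± 0.13, limma adjusted p = 0.024). That call was lost under median-ratio and quantile scaling, with only the 6 libraries compared, and without control library 3 or IGF-NS library 1 or 2, with adjusted p from 0.012 to 0.14. In PDGF-NS against IGF-NS Ubtf was -0.40 ± 0.13 (limma adjusted p = 0.065). It passed as lower there with a common sum, with only the 6 libraries compared, and without control library 1 or 3. It also did so without both control library 1 and IGF-NS library 3.

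**Figure D2:**
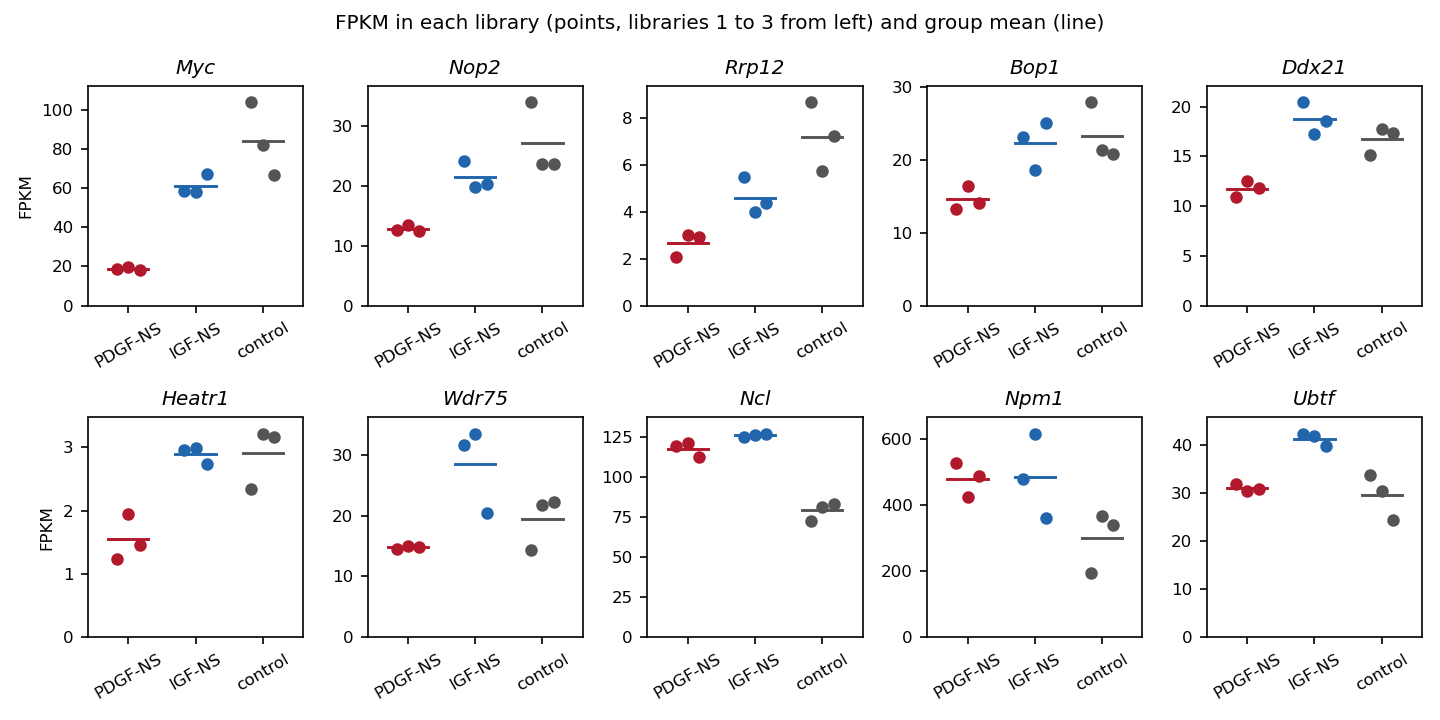
FPKM (vertical axis, starting at 0) in each library for 10 of the genes, with PDGF-NS, IGF-NS and control side by side, points for libraries and lines for group means. Myc lies between 18.0 and 19.6 FPKM in PDGF-NS and above 57 FPKM in every other library, while Ncl lies above 112 FPKM in every treated library and below 84 FPKM in every control library.

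Of the 6 chaperones and scaffolds, Ncl rose in both treated sets, Nolc1 and Ddx21 fell in PDGF-NS against control, and Ddx21 fell in PDGF-NS against IGF-NS. In PDGF-NS against control 20.7% of all tested genes rose and 10.2% fell. The shares were 17.4% that rose in IGF-NS against control and 7.55% that fell in PDGF-NS against IGF-NS. Ncl (ENSRNOG00000018273), nucleolin, an abundant RNA-binding protein of the nucleolus, measured 119, 121 and 112 FPKM in PDGF-NS, 125, 126 and 127 FPKM in IGF-NS and 72.5, 81.4 and 83.2 FPKM in control libraries. Every treated library was above every control library. It rose in PDGF-NS (0.57 ± 0.11, limma adjusted p = 0.0028) and in IGF-NS against control (0.67 ± 0.11, limma adjusted p = 0.0020), and both calls held under every alternative run. PDGF-NS minus IGF-NS was -0.10, with a 95% interval of -0.33 to 0.14. Npm1, the histone and ribosome chaperone nucleophosmin, was the most abundant of the 37 and measured 529, 423 and 488 FPKM in PDGF-NS, 479, 616 and 360 FPKM in IGF-NS and 196, 366 and 341 FPKM in control libraries. PDGF-NS lay above all control libraries, IGF-NS overlapped them, and control library 1 was the lowest. Neither change was called with all 9 libraries: 0.72 ± 0.26 in PDGF-NS (limma adjusted p = 0.057) and 0.71 ± 0.26 in IGF-NS (adjusted p = 0.070). The PDGF-NS change passed without control library 2 or IGF-NS library 2 or 3. The IGF-NS change passed without IGF-NS library 3, alone or together with control library 1.

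Ddx21, an RNA helicase that couples polymerase I transcription to processing, measured 10.9, 12.5 and 11.8 FPKM in PDGF-NS, 20.4, 17.3 and 18.6 FPKM in IGF-NS and 15.1, 17.8 and 17.3 FPKM in control libraries. PDGF-NS was below every other library. Ddx21 fell in PDGF-NS against IGF-NS by 0.63 ± 0.12 (limma adjusted p = 0.0067), a call that held under every alternative run, and against control by 0.48 ± 0.12 (adjusted p = 0.015, with 0.0035 to 0.055 over the alternatives, lost without control library 2 or PDGF-NS library 1 or 3). Nolc1, which carries snoRNPs between Cajal bodies and nucleolus, measured 38.2, 51.4 and 45.6 FPKM in PDGF-NS, 59.1, 58.9 and 56.9 FPKM in IGF-NS and 57.3, 57.6 and 64.8 FPKM in control libraries. It fell in PDGF-NS against control by 0.41 ± 0.13 (limma adjusted p = 0.036, with 0.0087 to 0.12 over the alternatives). PDGF-NS did not overlap either set, and the call was lost without control library 2 or 3, IGF-NS library 1, or PDGF-NS library 1 or 3. The Nolc1 call was also lost with a replicate block and with only the 6 libraries compared. Gnl3, the GTPase nucleostemin, and Mybbp1a, a nucleolar binding partner of Myb, passed in no comparison with the values as deposited and all 9 libraries. Their log2 changes in PDGF-NS against control were -0.06 and -0.37, and under median-ratio, quantile and common-sum scaling Mybbp1a passed as lower. Every IGF-NS library was above every other library for Gnl3. It was 0.33 ± 0.14 in IGF-NS against control (limma adjusted p = 0.11) and -0.39 ± 0.14 in PDGF-NS against IGF-NS (adjusted p = 0.084). Both changes passed without IGF-NS library 3, alone or together with control library 1. The change between the treated sets also passed with a common sum.

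Among box C/D proteins, which guide 2′-O-methylation of ribosomal RNA, Nop56 was the only one called with the values as deposited and all 9 libraries. This core scaffold protein measured 10.8, 17.0 and 17.5 FPKM in PDGF-NS, 26.1, 22.4 and 23.9 FPKM in IGF-NS and 16.7, 19.3 and 24.7 FPKM in control libraries. PDGF-NS lay below IGF-NS throughout and overlapped control. It fell in PDGF-NS against IGF-NS by 0.67 ± 0.20 (limma adjusted p = 0.047, with 0.014 to 0.14 over the alternatives, and no longer called without any 1 PDGF-NS or IGF-NS library or without control library 2). The Nop56 call was also lost with no filter, with a replicate block and with no variance trend. Fbl, the methyltransferase fibrillarin, measured 12.6, 21.6 and 16.2 FPKM in PDGF-NS, 29.3, 16.8 and 18.6 FPKM in IGF-NS and 29.6, 19.7 and 29.9 FPKM in control libraries. All 3 groups overlapped, and the PDGF-NS change against control was -0.63 with a 95% interval of -1.20 to -0.06 (limma adjusted p = 0.086). Fbl passed as lower there under median-ratio, quantile and common-sum scaling and without control library 2, and Nop56 did so with a common sum. Nop58, the partner of Nop56, and Rrp9, the protein specific to U3, were -0.11 and -0.47 in PDGF-NS against control, and neither passed.

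With all 9 libraries, none of the 3 tested box H/ACA proteins, which serve pseudouridylation, was called by limma in any comparison. Dkc1, the pseudouridine synthase, measured 7.17, 7.74 and 9.08 FPKM in PDGF-NS, 8.22, 7.98 and 14.2 FPKM in IGF-NS and 12.2, 10.1 and 9.80 FPKM in control libraries. PDGF-NS lay below control throughout, with a log2 change of -0.38 ± 0.21 (limma adjusted p = 0.19). The structural proteins Nop10 and Gar1 were -0.39 and -0.11 in PDGF-NS against control. Nop10 passed as lower there without both control library 1 and IGF-NS library 3. At an unadjusted p under 0.05, 12 of the 37 genes were lower in PDGF-NS against control, beside 14.4% of all tested genes, and no box H/ACA gene was among them.

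Of the 10 tested small subunit genes, Rrp12 and Heatr1 fell in PDGF-NS against control, and Heatr1, Wdr75 and Utp20 fell in PDGF-NS against IGF-NS. Of all tested genes, 10.2% and 7.55% fell in these comparisons in turn. Rrp12 (ENSRNOG00000048495), needed for late small subunit maturation and export, measured 2.06, 3.02 and 2.91 FPKM in PDGF-NS, 5.48, 3.98 and 4.39 FPKM in IGF-NS and 8.69, 5.75 and 7.24 FPKM in control libraries. The 3 groups did not overlap at all, with PDGF-NS lowest and control highest. It was 2.71-fold lower in PDGF-NS than in control (log2 change -1.16 ± 0.19, limma adjusted p = 0.0013), a call held under every alternative that could be run. IGF-NS against control was -0.54 ± 0.19 (adjusted p = 0.059, called as lower under median-ratio and quantile scaling and without control library 2), and PDGF-NS against IGF-NS was -0.62 ± 0.19 (adjusted p = 0.0504). Rrp12 passed as lower in PDGF-NS against IGF-NS with pseudocounts of 0.1 and 0.5, a common sum and no variance trend, and without control library 1.

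Heatr1, an early processome factor also tied to polymerase I transcription, measured 1.23, 1.96 and 1.46 FPKM in PDGF-NS, 2.96, 2.99 and 2.74 FPKM in IGF-NS and 2.34, 3.22 and 3.17 FPKM in control libraries. PDGF-NS was below every other library. It fell against control by 0.62 ± 0.17 (limma adjusted p = 0.022) and against IGF-NS by 0.62 ± 0.17 (limma adjusted p = 0.036). The Heatr1 row under the threshold had 0.595, 0.735 and 0.520 FPKM in PDGF-NS, 1.28, 1.28 and 1.02 FPKM in IGF-NS and 0.863, 1.21 and 1.19 FPKM in control libraries. How reads were shared between these rows was not examined, so the level of Heatr1 is uncertain. Its calls were lost in PDGF-NS against control without control library 2 or 3 or PDGF-NS library 1 or 3, and against IGF-NS without control library 2, any 1 IGF-NS library, or PDGF-NS library 1 or 3.

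Wdr75, a subunit of the complex that couples transcription of the precursor to its processing, measured 14.4, 15.0 and 14.9 FPKM in PDGF-NS, 31.5, 33.5 and 20.5 FPKM in IGF-NS and 14.4, 21.7 and 22.3 FPKM in control libraries. PDGF-NS lay below IGF-NS throughout, and control overlapped both. It fell in PDGF-NS against IGF-NS by 0.87 ± 0.21 (limma adjusted p = 0.018, with 0.00044 to 0.072 over the alternatives, lost without any 1 PDGF-NS library or IGF-NS library 1 or 2). The log2 changes against control were -0.35 in PDGF-NS (adjusted p = 0.23) and 0.52 in IGF-NS (adjusted p = 0.096). The IGF-NS change passed without IGF-NS library 3. Without both control library 1 and IGF-NS library 3, Wdr75 passed as lower in PDGF-NS and as higher in IGF-NS, each against control. Utp20, a late-joining processome component, measured 5.56, 6.31 and 5.60 FPKM in PDGF-NS, 8.49, 8.13 and 7.86 FPKM in IGF-NS and 6.13, 7.04 and 7.35 FPKM in control libraries. PDGF-NS lay below IGF-NS throughout and overlapped control. It fell in PDGF-NS against IGF-NS by 0.43 ± 0.13 (limma adjusted p = 0.047), a call lost under 15 of 21 alternatives, among them leaving out any 1 PDGF-NS or IGF-NS library or control library 2 or 3. Nop14, a U3-associated processome factor, was 0.19 in PDGF-NS and 0.30 in IGF-NS against control, the largest positive change of the small subunit genes in PDGF-NS, and was not called. Utp15, Bms1, Tsr1, Wdr43 and Nob1, the endonuclease that makes the final cut of 18S RNA, lay between -0.20 and 0.06 in PDGF-NS against control. With all 9 libraries they passed in no comparison. Tsr1 passed as lower in PDGF-NS against IGF-NS without both control library 1 and IGF-NS library 3.

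Among large subunit factors, Nop2 (ENSRNOG00000018453), a ribosomal RNA cytosine methyltransferase, measured 12.7, 13.5 and 12.5 FPKM in PDGF-NS, 24.1, 19.8 and 20.4 FPKM in IGF-NS and 34.0, 23.7 and 23.7 FPKM in control libraries. PDGF-NS lay below every other library, and IGF-NS library 1 overlapped control. Nop2 was 2.11-fold lower in PDGF-NS than in control (log2 change -1.0 ± 0.16, limma adjusted p = 0.0011), a call held under every alternative run, and fell against IGF-NS by 0.69 ± 0.16 (adjusted p = 0.015, with 0.0034 to 0.063 over the alternatives, lost without IGF-NS library 1 or PDGF-NS library 3).

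Bop1, Pes1 and Wdr12 form 1 complex that is needed for processing of large subunit RNA, and of these Bop1 was the only one called. Bop1 measured 13.3, 16.5 and 14.1 FPKM in PDGF-NS, 23.2, 18.6 and 25.1 FPKM in IGF-NS and 27.9, 21.3 and 20.8 FPKM in control libraries, with PDGF-NS below every other library. It fell against control by 0.63 ± 0.16 (limma adjusted p = 0.014, with 0.0039 to 0.053 over the alternatives, lost without PDGF-NS library 1 or 3). It fell against IGF-NS by 0.57 ± 0.16 (limma adjusted p = 0.037, with 0.012 to 0.12 over the alternatives, lost without any 1 PDGF-NS library, IGF-NS library 1 or 3, or control library 2). The call against IGF-NS was also lost with no filter and with a replicate block. In PDGF-NS against control Pes1 was -0.19, with a 95% interval of -0.51 to 0.13, and Wdr12 was 0.15, with an interval of -0.19 to 0.49. Wdr12 measured 14.1, 10.9 and 13.1 FPKM in PDGF-NS, 15.0, 15.0 and 12.4 FPKM in IGF-NS and 9.52, 12.4 and 12.1 FPKM in control libraries. Its PDGF-NS values overlapped both other sets, and its IGF-NS values lay just above those of control. Rrs1, an assembly factor of the 5S RNA particle, measured 11.4, 12.4 and 10.96 FPKM in PDGF-NS, 15.0, 7.86 and 17.6 FPKM in IGF-NS and 29.2, 16.6 and 11.3 FPKM in control libraries. It varied most among control libraries of all 37 genes (coefficient of variation 48.3%), and its change in PDGF-NS against control was -0.57 ± 0.33 (limma adjusted p = 0.22). It passed as lower without both control library 3 and IGF-NS library 2. Nop16, Nip7 and Ftsj3, which also act in large subunit assembly, lay between -0.15 and -0.12 in that comparison and were not called.

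The summed level depends on whether the most abundant genes are counted. Npm1 averaged 422 FPKM over the 9 libraries and Ncl 107 FPKM, ahead of Myc at 54.7 and Nolc1 at 54.4 FPKM. All 37 genes summed to 1084 ± 28.7 FPKM in PDGF-NS, 1270 ± 137 FPKM in IGF-NS and 1037 ± 81.7 FPKM in control cells (SD, n = 3 each). Without Npm1 and Ncl the sums were 458, 507 and 494 FPKM in PDGF-NS, 693, 650 and 634 FPKM in IGF-NS, and 675, 646 and 650 FPKM in control libraries. The PDGF-NS libraries were then the 3 lowest and the other groups overlapped. With Myc also left out, the 34 remaining genes summed to 468 ± 25.0 FPKM in PDGF-NS, 598 ± 33.9 FPKM in IGF-NS and 573 ± 9.99 FPKM in control cells.

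By role, every group had a negative median log2 change in PDGF-NS against control, from -0.44 for box C/D and -0.38 for box H/ACA proteins to -0.18 for small subunit and -0.17 for large subunit factors. The polymerase I group stood at -0.37 and the chaperones at -0.21. The medians in IGF-NS against control were 0.24 each for the polymerase I group and the chaperones, 0.12 for small subunit factors, and -0.04, -0.05 and -0.11 for box C/D, large subunit and H/ACA genes. Of the 37 genes, 21 were called in no comparison with the values as deposited and all 9 libraries.

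Wider lists, chosen by function, were counted beside the 37. They held ribosome biogenesis, RNA exosome, RNA polymerase III and Max network genes, and Myc targets outside the nucleolus. All the lists together held 188 tested genes, of which 12.8% fell and 10.6% rose in PDGF-NS against control, beside 10.2% and 20.7% of all tested genes. The shares were 4.26% and 6.91% in IGF-NS against control, beside 7.48% and 17.4%, and 5.85% and 3.19% in PDGF-NS against IGF-NS, beside 7.55% and 8.33%. Of 10 other polymerase I genes 3 fell and none rose by limma in PDGF-NS against control: Tcof1, the Treacher Collins protein treacle that works with Ubtf (-0.96), Taf1c, a subunit of the promoter selectivity factor (-0.89), and the polymerase subunit Cd3eap (-0.72). Of 37 other small subunit factors 6 fell (16.2%) and 5 rose (13.5%), with Bysl at -1.19, Nol7 at 0.98 and the helicase Ddx49 at -0.88. Of 38 other large subunit factors 5 fell and 3 rose, with Ppan at -1.07 and Rrp1b and Noc2l at -0.67 each. Of 10 snoRNP assembly cofactors the AAA+ ATPase Ruvbl2 fell (-0.57) and none rose. The medians of these lists were -0.11, 0.02, -0.10 and -0.16, against 0.13 for all tested genes. In IGF-NS against control these 4 lists had 1, 2, 2 and 0 genes that fell and 0, 3, 1 and 1 that rose. Cd3eap at -0.82, Ddx49 at -0.88, Dcaf13, a processome factor, at 0.78, Ppan at -0.63 and Shq1, an H/ACA assembly factor, at 0.69 were among them. In PDGF-NS against IGF-NS the counts were 1, 2, 0 and 1 that fell (Tcof1 at -0.55, Wdr3 at -0.64, Emg1 at -0.57 and Ruvbl2 at -0.57) and 0, 2, 0 and 0 that rose (Imp3 at 0.91 and Rrp36 at 0.61, both processome proteins).

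Myc's partners and other known targets did not all run with it. Max, the obligate partner of Myc, was -0.04 in PDGF-NS against control (limma adjusted p = 0.83). Of 10 Max network genes 2 fell and 1 rose there, beside 10.2% and 20.7% of all tested genes. The paralog Mycn (-0.84) and Mlxip, which pairs with Mlx (-0.88), fell, and Mxi1, which competes with Myc for Max, rose (1.12). In IGF-NS against control none of the 10 was called by limma, where 17.4% of all tested genes rose and 7.48% fell. In PDGF-NS against IGF-NS Mxi1 rose (0.83) and Mxd3, a repressor of the same network, fell (-1.06), beside 8.33% and 7.55% of all tested genes. Of 32 Myc targets outside the nucleolus 6 fell and 6 rose in PDGF-NS against control (18.8% each, beside 10.2% and 20.7% of all tested genes), with a median of 0.04, against 0.13 for all tested genes. Those with the largest changes were Nampt, an enzyme of NAD salvage (1.52), Pprc1, a coactivator (-1.15), and the transferrin receptor Tfrc (-1.14). Of the same 32 genes 2 fell and 3 rose in IGF-NS against control, among them Cdk4 (0.57), C1qbp (0.56) and Nampt (0.55). In PDGF-NS against IGF-NS 4 fell and 2 rose, among them Odc1, the rate-limiting enzyme of polyamine synthesis (-1.26), Ldha, lactate dehydrogenase (1.09), and Tfrc (-1.05).

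**Figure D3:**
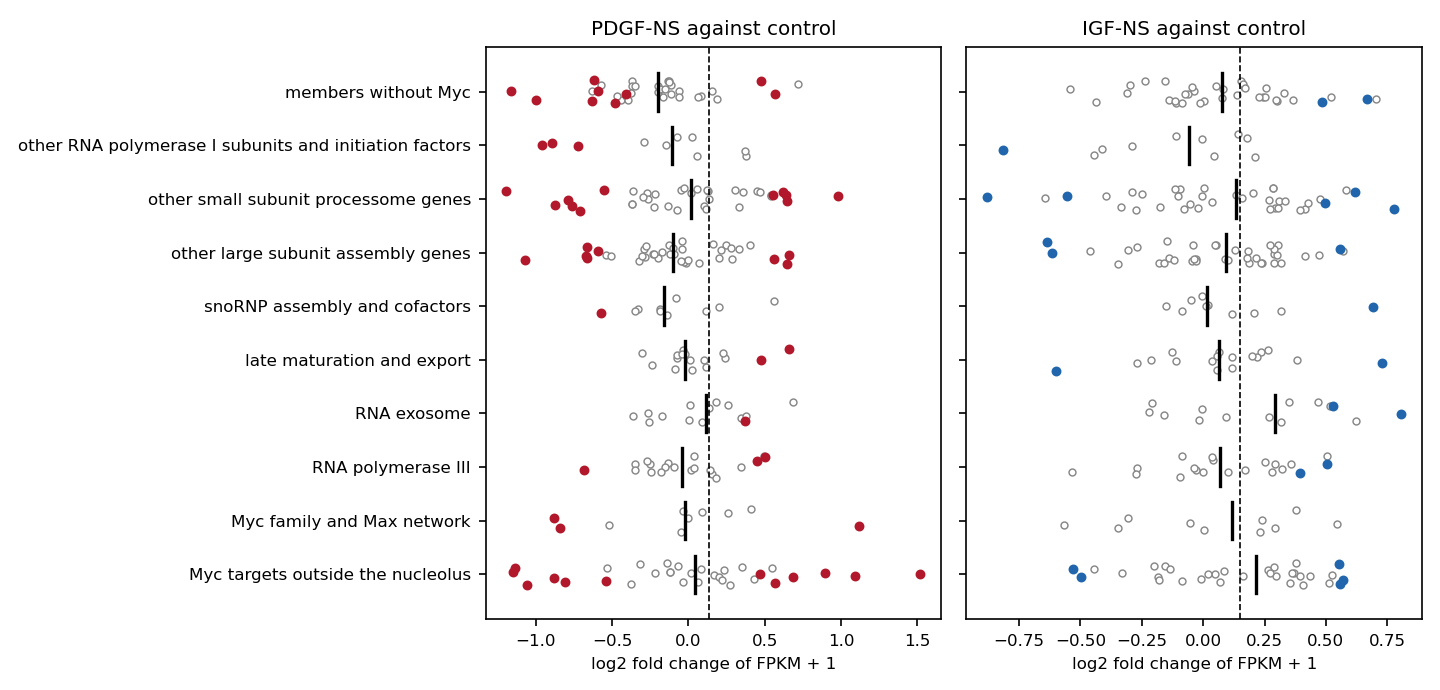
Log2 fold change (log2(FPKM + 1) scale) of each gene of the pathway lists and of the 36 genes other than Myc, by list, in PDGF-NS against control (left) and IGF-NS against control (right), with filled points for genes that passed, black bars for list medians and a dashed line for the median of all tested genes. In PDGF-NS against control the medians of the other lists lie between -0.16 and 0.11, and that of the 36 genes at -0.20.

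Promoter sequence was read from RefSeq (GRCr8), 250 bases before to 50 bases after each start, for 33 of the 37 genes; Myc, Rrs1, Bop1 and Wdr43 had no entry. The E-box CACGTG, its own reverse complement, was in 10 of 33 windows (30.3%), beside 9.78% of 7865 windows of tested genes and 6.65% of all 27457 windows. The variant CACGCG, with its reverse complement CGCGTG, was in 12 of 33 (36.4%), beside 18.2% and 9.06%. A match is a run of letters and not a measured site, and the genes were chosen by pathway, which holds known Myc targets. CACGTG stood in the windows of Gnl3, Mybbp1a, Fbl, Dkc1, Wdr75, Utp20, Tsr1, Rrp12, Nop2 and Pes1. The 4 of these genes that were called in a comparison are shown here on their coding strand with either motif in capitals, together with Ncl, which rose in both treated sets and holds neither motif in this window.
Nop2 (chr4:159618716-159619015, plus strand): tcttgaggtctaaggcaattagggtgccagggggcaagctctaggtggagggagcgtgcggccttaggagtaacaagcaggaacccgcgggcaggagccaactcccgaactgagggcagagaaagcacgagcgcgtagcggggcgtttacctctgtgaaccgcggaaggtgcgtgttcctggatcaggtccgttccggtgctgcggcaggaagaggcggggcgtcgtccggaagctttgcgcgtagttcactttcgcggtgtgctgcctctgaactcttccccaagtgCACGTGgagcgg
Rrp12 (chr1:250655269-250655568, minus strand): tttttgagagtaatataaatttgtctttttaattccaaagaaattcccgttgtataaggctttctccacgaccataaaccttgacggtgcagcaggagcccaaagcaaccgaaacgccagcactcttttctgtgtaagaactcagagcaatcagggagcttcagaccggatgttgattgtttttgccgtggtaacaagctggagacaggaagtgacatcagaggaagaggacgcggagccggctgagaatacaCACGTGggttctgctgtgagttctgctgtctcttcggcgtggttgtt
Wdr75 (chr9:55394982-55395281, plus strand): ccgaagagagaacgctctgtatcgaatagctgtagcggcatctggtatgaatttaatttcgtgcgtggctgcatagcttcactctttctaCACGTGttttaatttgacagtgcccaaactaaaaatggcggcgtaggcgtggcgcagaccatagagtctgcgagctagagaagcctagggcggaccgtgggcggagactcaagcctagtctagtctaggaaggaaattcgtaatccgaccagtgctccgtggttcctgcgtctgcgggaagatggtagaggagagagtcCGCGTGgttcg
Utp20 (chr7:25102800-25103099, minus strand): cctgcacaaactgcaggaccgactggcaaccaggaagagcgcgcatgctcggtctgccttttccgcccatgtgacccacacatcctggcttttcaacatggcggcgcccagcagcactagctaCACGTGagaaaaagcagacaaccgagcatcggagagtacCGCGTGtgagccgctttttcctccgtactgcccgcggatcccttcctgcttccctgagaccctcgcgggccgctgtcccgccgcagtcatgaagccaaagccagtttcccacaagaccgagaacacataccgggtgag
Ncl (chr9:94456034-94456333, minus strand): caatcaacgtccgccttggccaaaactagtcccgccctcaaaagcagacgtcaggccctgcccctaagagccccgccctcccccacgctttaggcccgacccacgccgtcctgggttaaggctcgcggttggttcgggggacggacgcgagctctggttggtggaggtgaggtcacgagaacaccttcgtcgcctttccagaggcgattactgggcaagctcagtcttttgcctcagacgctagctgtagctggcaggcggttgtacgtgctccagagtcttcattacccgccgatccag
Counted at its first base, the CACGTG of Nop2 and Rrp12 lay 38 and 3 bases after the start, and in Wdr75 and Utp20 it lay 160 and 127 bases before it. The windows of Wdr75 and Utp20 also held CGCGTG, 39 bases after and 88 bases before the start. Genes with and without the motif overlapped in their changes. In PDGF-NS against control 2 of 10 genes with CACGTG fell and none rose, with a median of -0.36 and a range of -1.16 to -0.06, and of 23 genes without it 4 fell and 2 rose, with a median of -0.13. In PDGF-NS against IGF-NS 3 of 10 with it and 5 of 23 without it fell, with medians of -0.38 and -0.23. None of the 10 was called by limma in IGF-NS against control, and the medians there were -0.06 with the motif and 0.15 without it. Of all tested genes, 10.2% fell and 20.7% rose in PDGF-NS against control, and 7.55% fell in PDGF-NS against IGF-NS. In IGF-NS against control 7.48% fell and 17.4% rose. The medians of all tested genes in these comparisons were 0.13, -0.02 and 0.15. No test was made of the differences between genes with and without the motif.

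**Figure D4:**
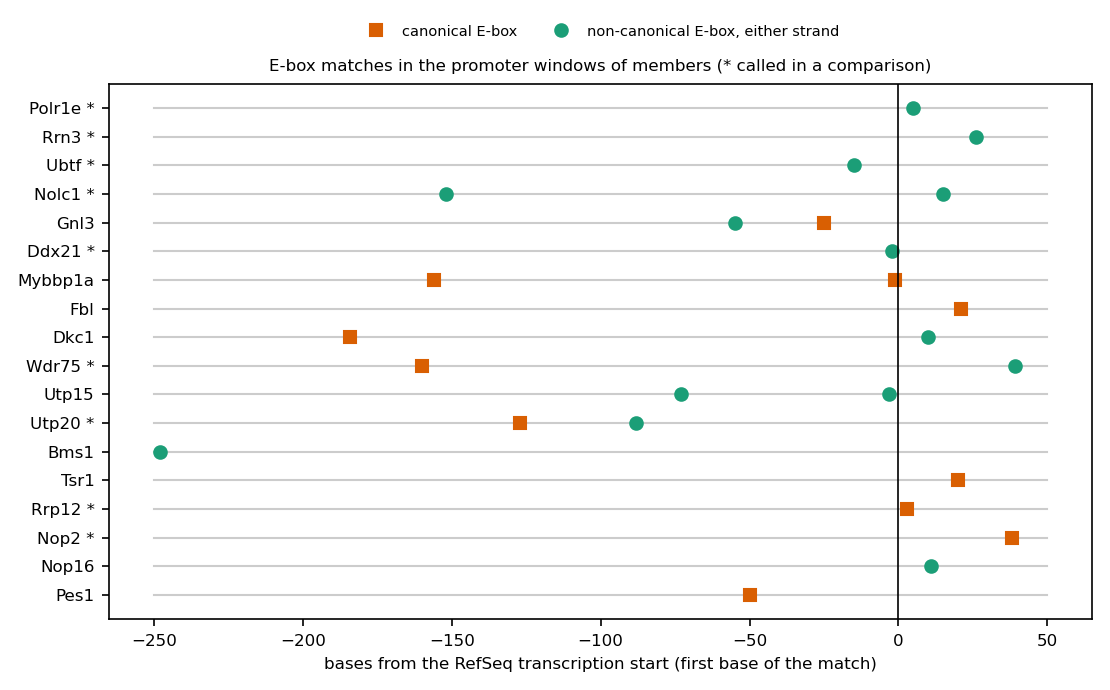
Position of the first base of each match (horizontal axis, bases from the start) to CACGTG (squares) and to CACGCG or CGCGTG (circles) in the promoter windows of the 18 genes that hold either, in order of role, with a star at genes called in a comparison. The matches lie on both sides of the start, from 248 bases before it in Bms1 to 39 bases after it in Wdr75.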

How the data were processed

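RNA was sequenced from 9 libraries of S31 cells made with a Lexogen SENSE mRNA kit after Trizol extraction, per the labels' protocols. The authors deposited FPKM per gene, and GSNAP and Cufflinks were used, per the submitters' processing notes. Versions, genome build and annotation were not given in the sources used here. No count model suits FPKM, and how Cufflinks shared reads between similar genes was not examined.

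The table had 26407 rows, 5795 of them without a symbol. The value 999999999 in 10 cells of 4 genes was read as a failed estimate and those genes were left out, as were 2 duplicate rows. Libraries were assigned by the column that each sample record names. Genes that averaged 1 FPKM or more were tested with limma 3.58.1 (trend, R 4.3.3) on log2(FPKM + 1), with all 9 libraries in 1 fit and the group as its only term. P-values are two-sided and Benjamini-Hochberg adjusted over 11376 genes in each comparison, and a gene is said to be called, or to rise or fall, where that p is below 0.05. Fold changes are differences on the log2(FPKM + 1) scale, which understates the change of low genes, while printed folds are ratios of mean FPKM. The procedure was tested on simulated data. Replicate numbers did not pair libraries: same-numbered libraries of different groups correlated in their deviations from -0.28 to 0.25.

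Alternatives were pseudocounts of 0.1 and 0.5, a mean of at least 5 FPKM and no filter, median-ratio, quantile and common-sum scaling, a replicate block, no variance trend, only the 6 libraries compared, and each library left out. Leaving out control library 1 with IGF-NS library 3, or control library 3 with IGF-NS library 2, was chosen after seeing the data. The members and lists were chosen with earlier results of these data known. Values in every library were to be given for Myc and for the largest rise and fall of each role group in a comparison, and for pathway lists the counts and up to 3 called genes of largest change; other values in the text were chosen after they were seen. Some genes of the pathway lists are not reported here.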

Additional observations from a re-analysis of the deposited data

How the results depend on the processing

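No call on the 37 genes reversed under any alternative run. Calls held under all of them for 4 of 10 genes in PDGF-NS against control (Myc, Ncl, Nop2 and Rrp12), 1 of 2 in IGF-NS against control (Ncl) and 2 of 10 in PDGF-NS against IGF-NS (Myc and Ddx21). Under the filter of 5 FPKM some low genes were not tested. The cause of the changes below was not tested.

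In PDGF-NS against control, the 2 genes that rose became 1 under median-ratio, quantile and common-sum scaling and without either pair of libraries that ran together, and 1 to 3 with 1 library left out. The 8 genes that fell became 13 with a common sum, 12 under median-ratio and quantile scaling, and 3 to 8 with 1 library left out. Over all tested genes, 2355 rose (1535 to 2482 with 1 library left out), and 1166 fell (839 to 1257), or 1752 under quantile normalization.

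In IGF-NS against control, the 2 genes that rose became 1 under median-ratio and quantile scaling and with only the 6 libraries compared, 5 without control library 1 and IGF-NS library 3, 1 without control library 3 and IGF-NS library 2, and 1 to 5 with 1 library left out. The 0 that fell became 2 under median-ratio and quantile scaling, and 0 to 1 with 1 left out. Over all tested genes, 1976 rose (1181 to 1960 with 1 library left out), or 1137 with median-ratio and 1214 with quantile scaling, and 851 fell (576 to 975). Without control library 3 and IGF-NS library 2 these were 887 and 436.

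In PDGF-NS against IGF-NS, the 10 genes that fell became 15 with a common sum, 6 with no filter, 4 without control library 3 and IGF-NS library 2, and 2 to 12 with 1 library left out. Over all tested genes, 948 rose (548 to 1096 with 1 library left out), and 859 fell (466 to 1047), or 1480 with a common sum. Replicate numbers did not pair the libraries; with them as a replicate block 6 of the 37 genes fell in PDGF-NS against IGF-NS, and 7 fell in PDGF-NS against control. FPKM without absolute depth gives no counting error, and low genes such as Gar1 and Rrp9 are the least certain.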

Other observations

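Genes that act after or beside the nucleolar steps were counted in the same way, where 20.7% of all tested genes rose and 10.2% fell in PDGF-NS against control, 17.4% rose and 7.48% fell in IGF-NS against control, and 8.33% rose and 7.55% fell in PDGF-NS against IGF-NS. Of 17 late maturation and export genes, Xpo1, the exportin that carries both subunits out of the nucleus (0.66), and the kinase Riok3 (0.48) rose in PDGF-NS against control and none fell by limma. In IGF-NS against control Xpo1 rose (0.73) and Sbds, which helps to release the anti-association factor from the large subunit, fell (-0.60). Sbds rose in PDGF-NS against IGF-NS (0.58). Of 14 exosome genes, which trim and degrade RNA, Exosc9 rose in PDGF-NS against control (0.37), and in IGF-NS against control C1d (0.81) and the nuclease Dis3 (0.53) rose. Dis3 fell in PDGF-NS against IGF-NS (-0.52).

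RNA polymerase III makes 5S RNA and transfer RNA. Among its genes, Polr3f (0.50) rose and Polr3e (-0.68) fell in PDGF-NS against control, and Polr3f (0.51) and Polr3c (0.40) rose in IGF-NS against control. Gtf3c5, a subunit of the initiation factor TFIIIC, fell in PDGF-NS against IGF-NS (-0.53). The median log2 changes in PDGF-NS against control were -0.02 for late maturation, 0.11 for exosome and -0.04 for polymerase III genes, against 0.13 for all tested genes.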
